A study of Mus musculus with 2 samples.

Results

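Interferon-γ (Ifng) and the genes of its receptor, Ifngr1 and Ifngr2, are described here in single cells of MC38 tumors. These are 3 of the 32285 genes counted, and they are matched in the files by symbol. MC38 is a mouse colon adenocarcinoma line. It was grown under the skin of C57BL/6 mice aged 6 to 8 weeks. Tumors received 3 injections directly into the tumor at intervals of 3 days and were collected on day 7, and the tumors of 3 mice were pooled for each library. One library came from tumors given MSA-2, a small-molecule agonist of the cytosolic DNA sensor pathway protein STING, and 1 from control tumors. The control is labelled untreated, although the series record describes a vehicle of saline with 10% DMSO and the methods speak of saline. With 1 library per condition and the mice pooled, the spread between tumors is unknown and no test between conditions was possible. All intervals below are exact 95% intervals that cover counting error only. Differences are given as "higher" or "lower" between these libraries.

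IFN-γ is the type II interferon, a cytokine made chiefly by T cells and NK cells once they are activated. The receptor has a ligand-binding chain, encoded by Ifngr1, and a signaling chain, encoded by Ifngr2. They bring the kinases JAK1 and JAK2 together, and signaling from them induces genes for antigen presentation, chemokines and antimicrobial effectors. Nearly all nucleated cells can carry the receptor, and in tumors IFN-γ is known for raising antigen presentation and the checkpoint ligand Cd274 (PD-L1).

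The genes lie on 2 chromosomes in the mm10 build (GRCm38). Ifng (ENSMUSG00000055170) spans chr10:118441046-118445892 on the plus strand, and its longest annotated transcript has 4 exons and 1208 bases. Ifngr1 (ENSMUSG00000020009) spans chr10:19591949-19610229, also on the plus strand, and its longest transcript has 7 exons and 2112 bases. Ifngr2 (ENSMUSG00000022965) spans chr16:91547072-91565623 on the plus strand, with 7 exons and 3708 bases in the longest transcript. The promoter windows are shown because a gene detected mostly in lymphocytes is set here beside receptor genes detected in every class. They are from RefSeq (GRCm38.p6), run from 250 bases before to 50 bases after the start of each gene in RefSeq, and are printed 5′ to 3′ on the plus strand. All 3 members were matched by symbol. The gene spans are from the GENCODE annotation, and the RefSeq start of Ifngr2 lies a few bases upstream of the GENCODE one. Capitals mark the NFAT core GGAAA and the TATA box TATAAA in the first sequence. In the next they mark the CCAAT box, which reads ATTGG on the other strand, and the Sp1 core. The Sp1 core is GGGCGG and is the only motif in capitals in the last sequence.
Ifng, chr10:118440796-118441095: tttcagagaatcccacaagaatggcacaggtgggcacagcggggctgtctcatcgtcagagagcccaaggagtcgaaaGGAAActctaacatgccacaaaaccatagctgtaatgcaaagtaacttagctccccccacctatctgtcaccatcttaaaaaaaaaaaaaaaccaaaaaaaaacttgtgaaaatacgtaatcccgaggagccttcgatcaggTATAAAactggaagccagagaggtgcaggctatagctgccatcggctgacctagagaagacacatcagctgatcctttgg
Ifngr1, chr10:19591699-19591998: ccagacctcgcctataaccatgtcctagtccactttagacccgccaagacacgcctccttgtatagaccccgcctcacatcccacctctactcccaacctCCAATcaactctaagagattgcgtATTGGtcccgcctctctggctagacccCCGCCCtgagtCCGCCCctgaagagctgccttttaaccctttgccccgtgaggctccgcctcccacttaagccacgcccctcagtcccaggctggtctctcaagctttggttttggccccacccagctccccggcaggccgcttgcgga
Ifngr2, chr16:91546809-91547108: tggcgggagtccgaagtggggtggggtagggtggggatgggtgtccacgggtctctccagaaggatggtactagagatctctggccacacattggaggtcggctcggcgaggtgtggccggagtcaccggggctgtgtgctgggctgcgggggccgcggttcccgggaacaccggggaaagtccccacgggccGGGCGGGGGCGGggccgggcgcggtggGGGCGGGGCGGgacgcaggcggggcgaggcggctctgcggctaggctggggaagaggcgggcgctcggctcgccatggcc

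The windows differ in composition. GC content was 46% in Ifng, 60.3% in Ifngr1 and 74.3% in Ifngr2, against a median of 52.7% over 32851 promoters, of which 95.6% had a lower GC content than Ifngr2. The TATA box was found in Ifng alone, at -30 from the start, and in 13.6% of all promoters. GGAAA was found in Ifng at -172 and in Ifngr2 at -75, and in 61.3% of promoters. Ifngr2 held 4 matches to GGGCGG, in adjoining or overlapping runs, and Ifngr1 held 2, while 35.7% of promoters had any. CCAAT was found in Ifngr1 and Ifngr2 and in 37.4% of promoters. The T-box letters AGGTGTGA matched no member (1.28% of promoters). All motifs were searched on both strands, and a match describes the letters and not a bound site.

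The libraries held 14386 untreated and 14617 MSA-2 barcodes with totals of 198135335 and 204387165 unique molecular identifiers (UMIs). After filters on genes and mitochondrial UMIs and removal of called doublets (5.02% and 4.08%), 13334 and 13393 cells remained, with medians of 8298.5 and 9271 UMIs. The libraries shared 53 barcodes. Clusters were made without interferon-stimulated genes and without the members, and were named from marker lists. The largest class (6581 untreated, 7027 MSA-2) was marked by Gng11, at 1315 and 2075 CPM (UMIs of the gene per 1000000 UMIs of the same cells), and by Anxa1. The keratin Krt8 and the epithelial marker Epcam were at or below 0.258 CPM in it, so it is called Gng11-high tumor cells after this gene and the sample labels. The name is a working one: its clusters scored 0.13 to 0.19 on the epithelial list, below the 0.5 asked of other lists, and were grouped because no other list reached that score. Gng11 was also at 1503 CPM in endothelial-like and 1218 CPM in pericyte-like cells. The sample labels call all cells tumor cells, but markers of T, NK, monocyte, macrophage, dendritic, neutrophil, stromal and vascular cells each defined clusters. The methods say that cells were sorted, without naming a gate, and a gate can set the share of each class. Within Gng11-high tumor cells the cluster led by Aspn and Enpp2 held 1750 untreated and 419 MSA-2 cells, and those led by Galnt13 and by Pcdh9 held 200 untreated and 2685 MSA-2 cells together. Of the macrophage-like cells, the main C1q cluster held 1517 of 3063 untreated and 326 of 1101 MSA-2 cells. The median log2 ratio of all tested genes was -0.12 in NK/T-like, -0.26 in monocyte-like, -0.15 in macrophage-like, -0.25 in dendritic-like, -0.25 in neutrophil-like, -0.11 in fibroblast-like and -0.13 in endothelial-like cells and 0.03 in Gng11-high tumor cells. The ratios below are to be read relative to these shifts.

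Which cells held the Ifng transcript, and whether its level differed after MSA-2, was asked first. Over all cells the Ifng level was nearly the same, at 25.01 CPM in the untreated and 22.9 CPM in the MSA-2 library. These are 4585 and 4394 UMIs, a log2 ratio of -0.13 (-0.19 to -0.07). T-like and NK-like cells, 11.4% of untreated but 2.23% of MSA-2 cells (1523 and 299), held 86.4% (85.3 to 87.3) of the Ifng UMIs in the untreated and 84.1% (83 to 85.2) in the MSA-2 library. Far fewer lymphocytes thus held a share of the transcript nearly as large as in the untreated library. In these cells the level was 666 CPM untreated and 2257 CPM with MSA-2, which is 3.39-fold higher (log2 ratio 1.76, 1.70 to 1.83). In NK/T-like cells 5.28% of 12503 tested genes were at least 2-fold higher and 7.19% at least 2-fold lower with MSA-2.

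**Figure D1:**
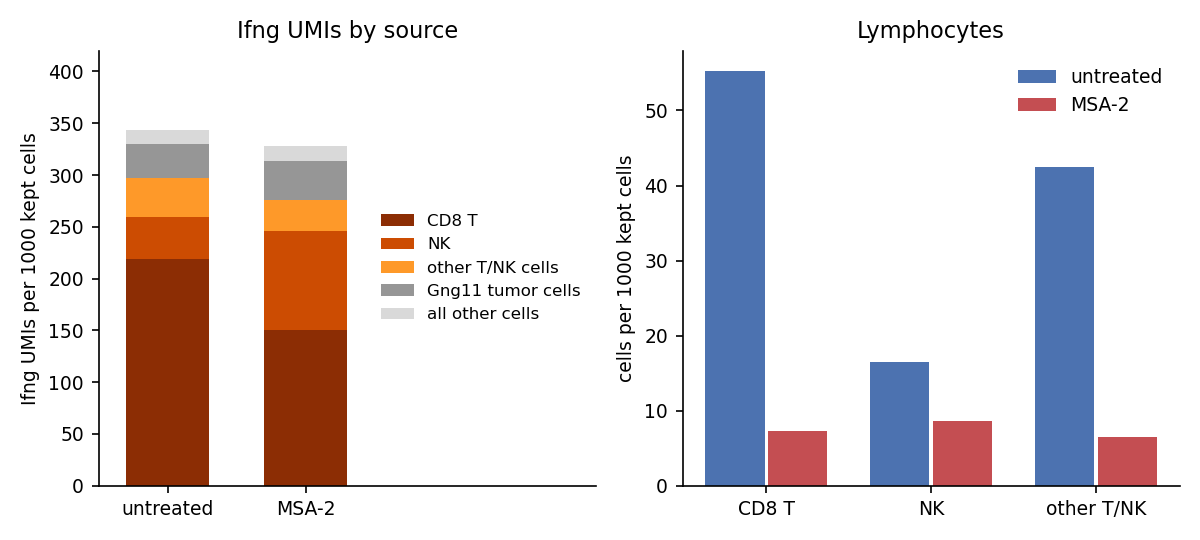
Stacked bars show Ifng UMIs per 1000 kept cells by the cells that held them (left), and bars show lymphocytes per 1000 kept cells (right), for the untreated and MSA-2 libraries. Ifng UMIs were 344 per 1000 cells untreated and 328 with MSA-2, although NK/T-like cells were 11.4% and 2.23% of cells.

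The near equality over all cells can be written as an arithmetic identity of cell numbers and levels. The untreated library held 344 Ifng UMIs per 1000 cells and the MSA-2 library 328. With the MSA-2 numbers of cells of each kind and the untreated level per cell, there would be 108 UMIs per 1000 cells, 0.313 of the untreated value. With the untreated numbers and the MSA-2 levels there would be 1569, or 4.56 times that value. Set against Gng11-high tumor cells, NK/T-like cells numbered 23.1 per 100 in the untreated and 4.26 per 100 in the MSA-2 library, and they held 60.2 and 52.6 Ifng UMIs per 100 tumor cells.

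CD8 T cells were the main lymphocyte source in both libraries, with NK cells second by UMIs among the gated types. Cells were gated within the T-like and NK-like clusters by UMIs of their defining genes. CD8 T cells (Cd8a or Cd8b1, no Cd4 or Foxp3; 736 untreated and 97 MSA-2 cells) had 981 CPM untreated and 3799 CPM with MSA-2. That is 3.87-fold higher (log2 1.95, 1.87 to 2.04), and in UMIs per cell 3.97 against 20.7. Their median total depth was 3602 and 5109 UMIs. Their share of all Ifng UMIs was 63.7% (62.3 to 65.1) untreated and 45.7% (44.2 to 47.2) with MSA-2. NK cells (Ncr1, Klrb1c or Klre1, no T-cell genes; 220 and 115 cells) had 452 CPM and 1569 CPM, 3.47-fold higher (log2 1.80, 1.65 to 1.95). The NK share of Ifng UMIs was 11.7% (10.8 to 12.7) untreated and 29.2% (27.9 to 30.6) with MSA-2. The intervals of these shares did not overlap between libraries for either type. They take UMIs as independent and do not cover the spread between cells. With MSA-2 the 10 highest CD8 T cells held 32.7% and the 12 highest NK cells 44.6% of the Ifng UMIs of their type. Untreated, the 74 highest CD8 T cells held 45.2% and the 22 highest NK cells 57.8%. Against 220 of 1523 lymphocytes in the untreated library, gated NK cells were 115 of 299 in the MSA-2 library.

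The other gated types held under 1% of Ifng UMIs each in both libraries, and the ungated lymphocytes held 9.51% untreated and 8.63% with MSA-2. Conventional CD4 T cells (Cd4, no Foxp3) numbered 53 and 8 and held 21 and 22 Ifng UMIs, at 117 CPM and 609.8 CPM (log2 2.38, 1.45 to 3.31), and the 22 came from 3 cells, with 12 in 1 of them. The regulatory T cells (Foxp3; 84 and 9 cells), which restrain other T cells, held 7 UMIs and 1 UMI, at 18.3 CPM and 33.0 CPM, with intervals of 7.36 to 37.7 and 0.835 to 184 CPM that overlap. The γδ T cells (Trdc; 18 and 6 cells) held 39 and 3 UMIs, at 584 CPM and 84.1 CPM (log2 -2.79, -5.13 to -1.14), and 17 of the 39 came from 1 cell. That was the reverse of the other gates, in 24 cells altogether. Lymphocytes that met no gate (412 and 64) held 436 and 379 UMIs, at 378 CPM and 2012 CPM (log2 2.41, 2.21 to 2.62).

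In order of untreated level, CD8 T cells were highest, followed by γδ, NK and ungated cells, then conventional CD4 T cells, with regulatory T cells lowest. The intervals of γδ cells (415 to 798 CPM) and NK cells (414 to 491) overlapped, as did those of NK and ungated cells (343 to 415). With MSA-2 the order was CD8 T, ungated, NK, conventional CD4, γδ and regulatory T cells. Only the last 2 neighbours (17.3 to 246 and 0.835 to 184 CPM) had overlapping intervals there.

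**Figure D2:**
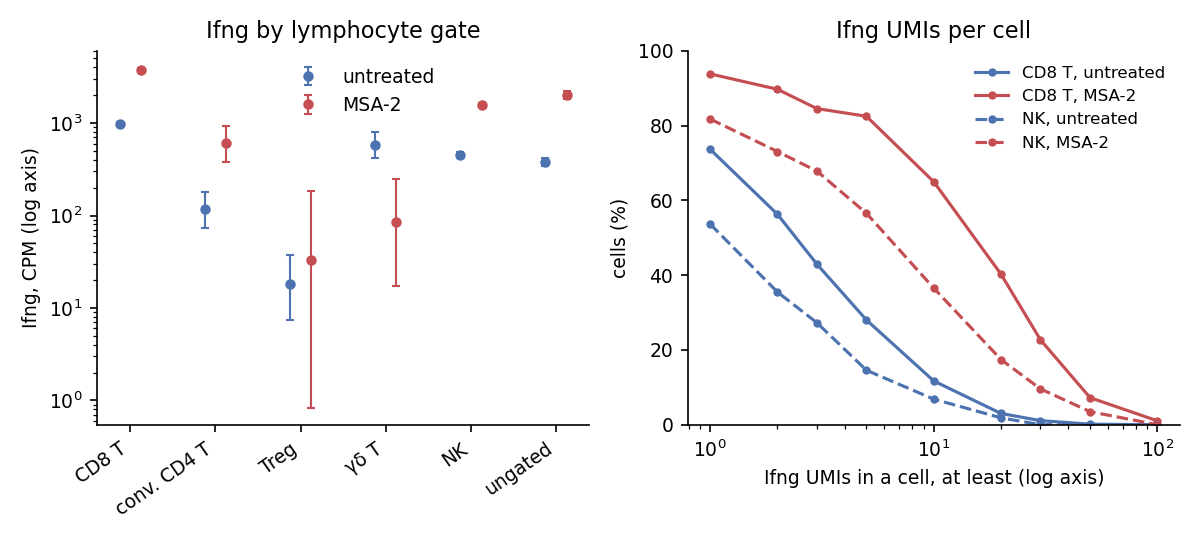
Ifng level in CPM (log axis) by gated lymphocyte type with exact Poisson 95% intervals (left), and the percentage of CD8 T and NK cells with at least a given number of Ifng UMIs (right), in both libraries. CD8 T cells were at 981 CPM untreated and 3799 CPM with MSA-2, and NK cells at 452 and 1569 CPM.

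A larger share of CD8 T and NK cells held Ifng in the MSA-2 library, in fewer cells altogether (91 against 542 CD8 T and 94 against 118 NK cells), and the cells that held it held more of it. Among CD8 T cells the median was 2 UMIs untreated and 16 UMIs with MSA-2, with a highest cell of 51 and 105. At least 10 UMIs were found in 86 of 736 untreated (11.7%) and 63 of 97 MSA-2 (64.9%) CD8 T cells. For NK cells the median was 1 UMI and 7 UMIs, the highest cell had 29 and 84, and 15 of 220 (6.82%) and 42 of 115 (36.5%) had at least 10.

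The share of cells with an Ifng UMI was compared at equal depth, after thinning every cell to 1500 UMIs. This left out 13 untreated and 4 MSA-2 CD8 T cells and 10 and 4 NK cells. Of CD8 T cells, 55.6% (51.9 to 59.3) untreated and 91.4% (83.8 to 96.2) with MSA-2 had a UMI; unthinned, the shares were 73.6% and 93.8%. Of NK cells, 33.8% (27.4 to 40.6) and 63.1% (53.4 to 72.03) had one, and 53.6% and 81.7% unthinned. Gng11-high tumor cells, at the same thinned depth, had 0.442% and 0.513%, so both lymphocyte shares lay far above the share in cells of another kind. For regulatory T cells the shares were 2.50% of 80 and 12.5% of 8 cells, the latter being 1 cell.

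The ratio was above 0 in each T-like and NK-like cluster and in CD8 T cells with exhaustion markers. Of the 5 clusters, the Satb1-led T cluster had a log2 ratio of 1.28 (415.7 and 1011 CPM), the Ctla4- and Ikzf2-led cluster 2.28 (37.9 and 184 CPM, the latter from 10 UMIs in 2 of 17 cells) and the NK cluster, led by granzymes, 1.95 (438 and 1686 CPM). The 2 T clusters in which Ifng was itself a leading gene had 1.72 (1158 and 3822 CPM) and 2.06 (827 and 3448 CPM). Ifng was not among the genes used for clustering. CD8 T cells with UMIs of both Pdcd1 and Havcr2, markers of exhaustion, (120 untreated cells, 19 MSA-2 cells) were at 1013 CPM and 4264 CPM (log2 2.07). The interval of that ratio, 1.91 to 2.23, overlapped that of all CD8 T cells.

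CD8 T cells with and without an Ifng UMI were compared in 65 lymphocyte and receptor genes after all genes had been thinned to 1500 UMIs together, a random draw separate from the one above. In the untreated library (393 and 330 cells) intervals did not overlap for 3 of the 54 genes found in at least 10 of these cells, where 0.856% of all 8178 such genes were apart. Overlap of the others does not show that they were equal. The transcription factor Lef1 was found in 2.54% of Ifng-positive and 12.7% of Ifng-negative cells, the granzyme Gzmk in 5.85% and 12.1%, and the chemokine Ccl4 in 72.01% and 61.5%. Ifngr1 was found in 60.3% and 62.1%. In the MSA-2 library (83 and 10 cells) none of 36 such genes had intervals apart, where 0.351% of all did. The same held for NK cells, with none of 40 untreated and none of 34 with MSA-2, against 0.381% and 0.542% of all.

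Cells other than lymphocytes held 625 untreated and 698 MSA-2 Ifng UMIs, at 3.52 CPM and 3.67 CPM. Gng11-high tumor cells held most of these (444 and 509 UMIs, 3.00 CPM and 3.12 CPM, log2 0.06, -0.13 to 0.25). That level was 0.450% of the NK/T-like level untreated and 0.138% with MSA-2. For 23 other lymphocyte genes the median of the same percentage was 0.529% and 0.176%, and 18 and 17 of the 23 stood above Ifng. Cd3e, a T-cell receptor subunit gene, was at 0.472% and 0.137%. By this percentage Ifng in Gng11-high tumor cells thus stood below most, but not all, of the other lymphocyte genes. Fibroblast-like cells held 22 and 128 UMIs (9 CPM and 11.9 CPM), 1.35% and 0.528% of the NK/T-like level, where the other lymphocyte genes had medians of 1.20% and 0.647%. Macrophage-like cells held 109 UMIs untreated (5.75 CPM) and 13 with MSA-2 (2.41 CPM), a log2 ratio of -1.26 (-2.21 to -0.42). That level was 0.864% and 0.107% of the NK/T-like one, with medians of 0.772% and 0.154% for the other genes, and it depended on doublet removal, since with doublets kept the ratio was 1.06. Dendritic-like cells held 26 UMIs and none, where 3 counts in 35 cells would be 22.2 CPM. Untreated, they were at 1.63% of the NK/T-like level, with a median of 1.29% for the other genes. Endothelial-like cells held 7 UMIs and 1 UMI, at 1.68% and 0.0444% of the NK/T-like level against medians of 0.923% and 0.069%. The counts were, in monocyte-like cells, 6 and 3 and, in neutrophil-like cells, 1 and 32 (in 42 and 2652 cells).

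The receptor genes were lower, not higher, in most classes of the MSA-2 library. Ifngr1, the ligand-binding chain, had log2 ratios below 0 in each of the 11 classes, and the interval excluded 0 in 7 of them. In the alternatives its ratio reached 0.025 in monocyte-like cells, 0.071 in Folr2-high macrophages and 0.096 in neutrophil-like cells. Among these only the monocyte-like interval had excluded 0. Ifngr2, the signaling chain, had ratios below 0 in 9 of the 11, with intervals excluding 0 in 5. Among all tested genes a ratio below 0 was common, at 44.6% in Gng11-high tumor cells and 52.8% to 63.5% in the other classes. The whole interval lay below 0 for 13.3% of genes in T-like, 13.9% in NK-like, 30.1% in monocyte-like, 29.2% in macrophage-like and 6.4% in dendritic-like cells. It did so for 13.5% in Folr2-high macrophages, 12.4% in neutrophil-like, 26.2% in fibroblast-like, 9.62% in pericyte-like, 14.6% in endothelial-like and 30.1% in Gng11-high tumor cells. Over all cells Ifngr1 was at 112 CPM untreated and 65.9 CPM with MSA-2 (log2 -0.76, -0.79 to -0.73) and Ifngr2 at 55.0 CPM and 34.2 CPM (-0.68, -0.73 to -0.64). These sums also hold the different numbers of cells of each class, and with equal weight for each cell the ratios were -1.44 and -1.01.

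Ifngr1 was highest in lymphocytes in both libraries. T-like cells had 796 CPM untreated and 427 CPM with MSA-2 (log2 -0.90, -1.07 to -0.73), and NK-like cells 704 CPM and 397 CPM (-0.83, -1.005 to -0.65). For NK/T-like cells together the values were 774 CPM and 411 CPM (-0.91, -1.03 to -0.80). By gate, CD8 T cells had 697 CPM and 407 CPM (-0.78), NK cells 698 CPM and 410.5 CPM (-0.77), and regulatory T cells 947 CPM and 494 CPM (-0.94). Conventional CD4 T cells had 911 CPM and 222 CPM, the latter from 8 UMIs. Every gate was thus lower with MSA-2, as was every one of the 5 clusters (-1.26 to -0.36). At 1500 UMIs, 68.0% (65.5 to 70.4) of untreated and 46.3% (40.2 to 52.4) of MSA-2 NK/T-like cells had an Ifngr1 UMI, with 83 and 29 shallower cells left out. CD8 T, NK, conventional CD4 T and ungated cells thus had more Ifng and less Ifngr1 in the MSA-2 library, the CD4 value resting on 3 cells with Ifng, while γδ cells had less of both and the Ifng interval of regulatory T cells included 0.

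Monocyte-like cells came next for Ifngr1 in the untreated library and had the largest difference of the named myeloid classes. They had 218 CPM untreated and 76.5 CPM with MSA-2 (log2 -1.51, -1.78 to -1.25). At least 2-fold differences were found for 10.5% (higher) and 13.3% (lower) of 11160 tested genes in these cells. Dendritic-like cells, which present antigen to T cells, had 206 CPM and 89.0 CPM (-1.21, -2.17 to -0.39), the latter from 12 UMIs in 35 cells, and the ratio ranged from -1.32 to -0.52 in the alternatives. Of 10122 genes tested in them, 11.2% were at least 2-fold higher and 28.4% at least 2-fold lower. Macrophage-like cells had 136 CPM and 95.6 CPM (-0.51, -0.65 to -0.37), where 6.29% of 14386 genes were at least 2-fold higher and 3.61% at least 2-fold lower. In their main C1q cluster the ratio was -0.15 (-0.37 to 0.07; 131 and 118 CPM), close to the shift of all genes. The border between monocyte-like and macrophage-like clusters moved with the clustering. Without integration the macrophage-like ratio was -0.11, and the monocyte-like one was 0.025 with 42 untreated cells. For these and the Folr2-high macrophages summed, a grouping chosen after the data were seen, Ifngr1 was at 146 CPM and 90.3 CPM (-0.69, -0.81 to -0.58) and its ratio stayed between -0.80 and -0.61 in the alternatives.

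Gng11-high tumor cells had 78.6 CPM of Ifngr1 untreated and 61.8 CPM with MSA-2 (log2 -0.35, -0.39 to -0.31). In them 2.38% of 19826 tested genes were at least 2-fold higher and 1.52% at least 2-fold lower. Over their 9 clusters the untreated level ran from 57.3 to 154 CPM and the MSA-2 level from 45.8 to 103 CPM. The ratio ran from -0.04 in the cluster led by the hypoxia genes Ero1l and Ankrd37 to -0.74 in the Pcdh9 cluster. Fibroblast-like cells had 93.7 CPM and 69.0 CPM (-0.44, -0.66 to -0.22), where 7.47% and 7.4% of 13809 genes were at least 2-fold higher and lower. Folr2-high macrophages (102 and 88.7 CPM, -0.21, -0.69 to 0.29), endothelial-like cells (102.5 and 79.2 CPM, -0.37, -0.87 to 0.13) and pericyte-like cells (94.7 and 39.1 CPM, -1.28, -2.70 to 0.01) had intervals that include 0. The 42 untreated neutrophil-like cells held only 4 Ifngr1 UMIs (60.2 CPM) against 156 in 2652 MSA-2 cells (30.6 CPM).

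**Figure D3:**
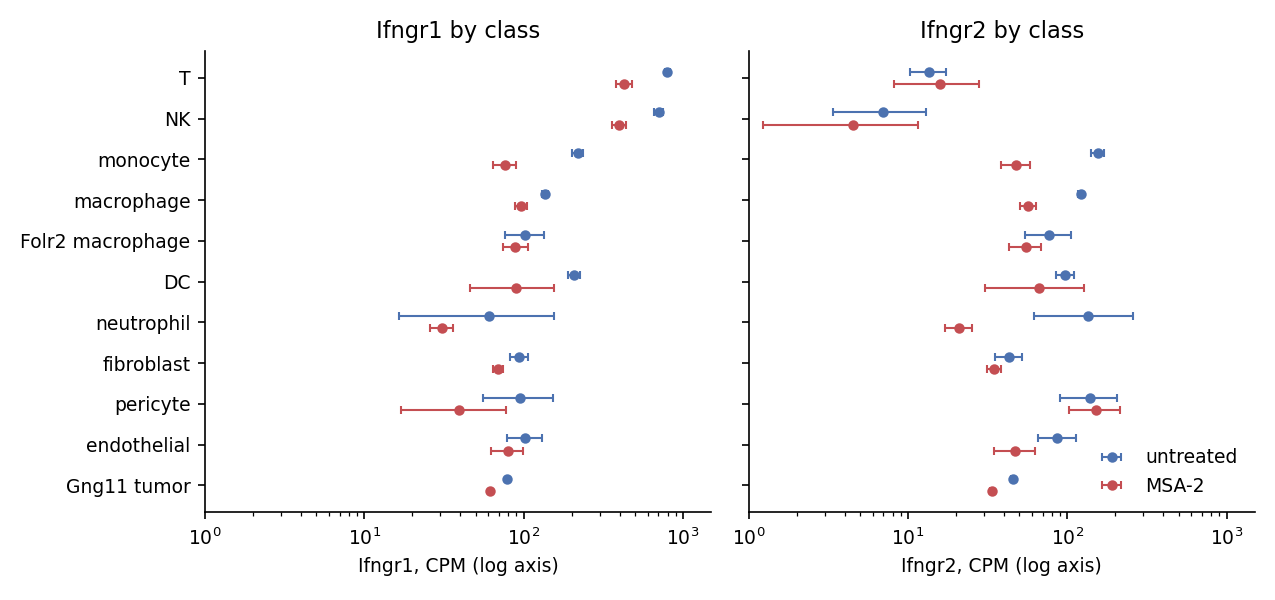
Levels of Ifngr1 and Ifngr2 in CPM (log axis) by cell class in the untreated and MSA-2 libraries, with exact Poisson 95% intervals. Ifngr1 was highest in T-like cells (796 and 427 CPM), and Ifngr2 was lowest in NK-like cells (7.01 and 4.54 CPM).

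In order of untreated Ifngr1 level, T-like cells stood first and NK-like cells second, without overlap of their intervals. Monocyte-like and dendritic-like cells followed and overlapped each other (201 to 236 and 188 to 225 CPM). Macrophage-like cells came next. Endothelial-like cells, Folr2-high macrophages, pericyte-like and fibroblast-like cells, between 93.7 and 102.5 CPM, overlapped each other, and Gng11-high tumor cells and neutrophil-like cells were lowest. With MSA-2 the T-like and NK-like intervals overlapped (382 to 476 and 357 to 441 CPM), and the other 9 classes lay between 30.6 and 95.6 CPM.

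Ifngr2 differed from Ifngr1 in the place of lymphocytes, which were highest for Ifngr1 and lowest for Ifngr2. Monocyte-like cells led the other classes for both genes in the untreated library. Ifngr2 was lowest in lymphocytes, with 71 UMIs in 1523 untreated and 16 UMIs in 299 MSA-2 NK/T-like cells. These are 11.9 CPM and 9.77 CPM (log2 -0.29, -1.17 to 0.51). The ratio was 0.23 (-0.80 to 1.14) in T-like and -0.63 (-2.75 to 1.17) in NK-like cells. At 1500 UMIs, 2.29% and 1.85% of NK/T-like cells had an Ifngr2 UMI. Monocyte-like cells were highest untreated, at 155 CPM, against 47.7 CPM with MSA-2 (-1.70, -2.04 to -1.37), and without integration the ratio was -0.78. Macrophage-like cells had 121 CPM and 56.7 CPM (-1.09, -1.27 to -0.92), and their main C1q cluster had -1.03. The 3 monocyte and macrophage classes summed had 124 CPM and 54.4 CPM (-1.19, -1.34 to -1.05), with a range of -1.27 to -1.09 in the alternatives. At 1500 UMIs, 16.5% of untreated and 7.71% of MSA-2 macrophage-like cells had an Ifngr2 UMI, and 20.3% and 8.23% of monocyte-like cells.

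In the other classes the Ifngr2 ratio ran from -2.70 to 0.12, and its interval excluded 0 in Gng11-high tumor, endothelial-like and neutrophil-like cells. Gng11-high tumor cells had 45.4 CPM and 33.5 CPM (log2 -0.44, -0.49 to -0.39), and all 9 of their clusters were below 0 (-0.80 to -0.08). Endothelial-like cells had 86.5 CPM and 47.1 CPM (-0.88, -1.47 to -0.29). Fibroblast-like cells had 43.0 CPM and 34.7 CPM (-0.31, -0.62 to 0.02), and dendritic-like cells 97.0 CPM and 66.7 CPM, the latter from 9 UMIs (-0.54, -1.69 to 0.41). Folr2-high macrophages had 76.3 CPM and 54.6 CPM (-0.48, -1.06 to 0.12). Pericyte-like cells, in 27 and 22 cells, had 139 CPM and 151 CPM (0.12, -0.69 to 0.94) and so were the class with the highest Ifngr2 level with MSA-2. Neutrophil-like cells had 135 CPM untreated, from 9 UMIs, and 20.8 CPM with MSA-2 (-2.70, -3.68 to -1.54), with a ratio of up to -1.63 in the alternatives. In the untreated order monocyte-like, pericyte-like, neutrophil-like and macrophage-like cells each overlapped the next, and so did dendritic-like, endothelial-like and Folr2-high cells. Gng11-high tumor and fibroblast-like cells overlapped each other, and T-like cells (13.5 CPM, 10.3 to 17.3) overlapped NK-like cells (7.01 CPM, 3.36 to 12.9).

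**Figure D4:**
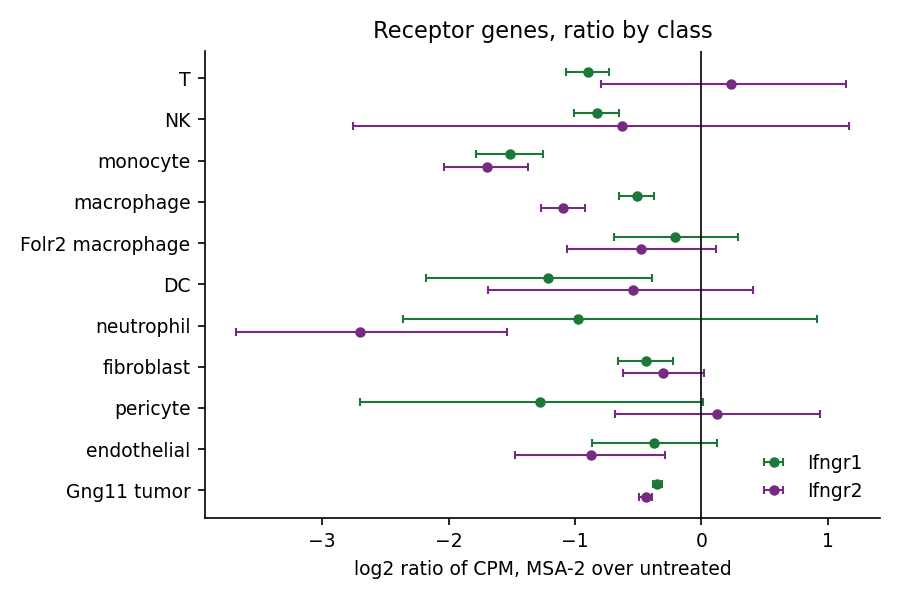
Log2 ratio of MSA-2 over untreated CPM for Ifngr1 and Ifngr2 by cell class, with exact 95% intervals for counting error. Monocyte-like cells had -1.51 for Ifngr1 and -1.70 for Ifngr2 (0.025 and -0.78 without integration), and Gng11-high tumor cells had -0.35 and -0.44.

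The balance of the receptor chains separated lymphocytes from all other classes. Since 3′ UMI counts of different genes are not scaled to a common capture, the ratio of Ifngr1 to Ifngr2 UMIs is compared here only between classes and libraries. NK/T-like cells had 64.8 Ifngr1 UMIs per Ifngr2 UMI untreated and 42.1 with MSA-2. Macrophage-like cells had 1.13 and 1.69, monocyte-like cells 1.41 and 1.60, and Gng11-high tumor cells 1.73 and 1.84. Fibroblast-like cells had 2.18 and 1.99. In macrophage-like cells the intervals of this ratio on the log2 scale (0.09 to 0.25 and 0.55 to 0.96) did not overlap between libraries. Cells with UMIs of both chains at 1500 UMIs were 3.06% of untreated and 1.11% of MSA-2 macrophage-like cells, and 5.67% and 0.844% of monocyte-like cells. Among NK/T-like cells they were 23 of 1440 (1.60%) untreated and 0 of 270 with MSA-2, where 3 cells would be 1.11%. The product of the single shares was 1.56% and 0.857% there, 3.02% and 0.945% in macrophage-like and 5.32% and 0.816% in monocyte-like cells.

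The genes with the most similar pattern were found by Pearson's r of log2(CPM + 1), as a description only, since the profiles share libraries and depth. Over 22 profiles (11 classes in both libraries) and 14421 genes, Gm15472 (0.93), Fcho1 (0.92), the transcription factor Tbx21 (0.92), Fgf13 (0.92) and the cytotoxic granule gene Nkg7 (0.91) were most like Ifngr1. Soga1 (0.89), Tmem50b (0.85), Marcks (0.83), Rgmb (0.83) and Tcf7l2 (0.82) were most like Ifngr2. For Ifng, over the 6 profiles with enough gated cells and 14132 genes, Il10ra, Apobec3, Hist1h2ae, Pdcd5 and Hist1h3i all had 0.99, so that few profiles left many genes about equally similar.

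The genes that act around Ifng were taken from lists that were fixed with earlier results of these data known. Among 14 lymphocyte genes for Ifng induction, 2 were at least 2-fold lower in NK/T-like cells and none at least 2-fold higher, where 7.19% and 5.28% of all tested genes were. The IL-18 receptor gene Il18r1 was at 199 CPM untreated and 67.2 CPM with MSA-2 (log2 -1.57). Tbx21, which encodes the Th1 factor T-bet, was at 167 CPM and 72.1 CPM (-1.21). The IL-12 receptor gene Il12rb2 was at 202 CPM and 326 CPM (0.69), Stat4, which relays IL-12, at 625 CPM and 504 CPM (-0.31), and Runx3 at 364 CPM and 216 CPM (-0.75). The median of the list was -0.38 against -0.12 for all tested genes. NK-like cells made up more of the pool in the MSA-2 library, so each kind is given too. In T-like cells Il12rb2 was at least 2-fold higher (1.02) and Il18r1 lower (-1.23), with a list median of -0.09 against -0.12. Of all genes 6.18% were at least 2-fold higher and 9.88% at least 2-fold lower in these cells. Il12rb2 was not past 2-fold with 10 CPM added, nor in gated CD8 T cells. In NK-like cells Il12rb1 was higher (1.65) and Tbx21, Runx3, Il18r1 and Nfatc2 were lower (-1.40 to -1.04), where 6.6% and 8.27% of all genes were. The list median was -0.63 against -0.10. Only 2 genes of the list were lower with 10 CPM added, and only 2 in gated NK cells. With at least 50 UMIs asked, 0 were higher in NK-like cells. The antisense gene Ifngas1 had 11 UMIs and 2 UMIs.

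Of 8 cytokine genes upstream of Ifng, 6 could be tested in macrophage-like cells, and 3 were at least 2-fold higher and 1 at least 2-fold lower, against 6.29% and 3.61% of all tested genes. Il27 was at 11.9 CPM untreated and 132 CPM with MSA-2 (log2 3.46), Il15, a growth factor of NK and memory T cells, at 28.0 CPM and 139.9 CPM (2.32), and Il12a had 0 and 12 UMIs. Il12b, the shared subunit of IL-12 and IL-23, was at 25.2 CPM and 4.63 CPM (-2.44). Dendritic-like cells held most Il12b UMIs, 1343 of 2007 untreated and 55 of 109 with MSA-2, at 562 CPM and 408 CPM (-0.46). Il18 was at 35.2 CPM and 70.4 CPM, close to 2-fold. In monocyte-like cells 3 of 4 tested genes were at least 2-fold higher (10.5% of all genes), namely Il27 (5.65), Il15 (3.50) and Il18 (2.24). In Gng11-high tumor cells Il15 was at 26.4 CPM and 78.4 CPM (1.57). Neutrophil-like cells held 0 of 5 Il12a UMIs untreated, in 42 cells, and 162 of 213 with MSA-2. Their Il15 level was 271 CPM untreated, from 18 UMIs, and 440 CPM with MSA-2 (0.70). The latter was the highest of the classes examined, which leave out pericyte-like cells. Dendritic-like cells held 0 and 32 Il27 UMIs. The cytokine genes differed in both directions, with the IL-12 subunit Il12b and Il15 apart.

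Below the receptor, the relay genes Jak1, Jak2, Stat2, Irf1 and Irf9 were examined, and none was at least 2-fold lower in any class examined (all but pericyte-like cells). In NK/T-like cells together and in Gng11-high tumor cells none of these 5 was at least 2-fold higher (5.28% and 2.38% of all genes were). Close to that cutoff were Stat2 in NK/T-like cells (0.99) and Irf9 (0.97) and Stat2 (0.95) in Gng11-high tumor cells. Jak1, Jak2 and Irf1 were lower in NK/T-like cells (-0.13, -0.23 and -0.39). Within lymphocytes Stat2 was past 2-fold in T-like (1.18, where 6.18% of all genes were) and gated CD8 T cells (1.53, 7.26%). Stat2 and Irf9 were so in NK-like (1.04 and 1.17, 6.6%) and gated NK cells (1.15 and 1.22, 6.8%). With 10 CPM added neither was past 2-fold in NK-like or gated NK cells. Stat2 was at least 2-fold higher in monocyte-like, macrophage-like and fibroblast-like cells (10.5%, 6.29% and 7.47% of all genes were), and Stat2 and Irf9 were so in dendritic-like (11.2% of all) and endothelial-like cells (7.28%). In neutrophil-like cells, where 35.6% of all genes were at least 2-fold higher and 32.5% at least 2-fold lower, Stat2 and Irf9 rest on 5 and 3 untreated UMIs. In Folr2-high macrophages Jak2, Irf1, Irf9 and Stat2 were past 2-fold (1.06 to 1.63), where 11.1% of all genes were. With 10 CPM added Irf9 was not past 2-fold in Folr2-high macrophages or in endothelial-like cells. Stat2, which serves mainly type I interferon, had 2.01 in monocyte-like, 1.37 in macrophage-like and 1.74 in fibroblast-like cells. Jak2 was at 27.9 CPM and 55.3 CPM in Gng11-high tumor cells (0.99), and Jak1 at 179 CPM and 138 CPM (-0.37). Of 7 genes that restrain the pathway, the type I interferon brake Usp18 was at least 2-fold higher in each of the same classes, from 1.62 in Gng11-high tumor cells to 3.50 in Folr2-high macrophages. The phosphatase gene Ptpn6 was at least 2-fold lower in NK/T-like cells (103 and 44.0 CPM, -1.23), with -1.85 in NK-like but -0.71 in T-like cells. It was also at least 2-fold lower in fibroblast-like cells (-1.68, from 19 and 26 UMIs). That call was lost with 10 CPM added and with at least 50 UMIs asked. Of all genes 7.19%, 8.27%, 9.88% and 7.4% were at least 2-fold lower in NK/T-like, NK-like, T-like and fibroblast-like cells. Ptpn2, another phosphatase gene, was at least 2-fold higher in monocyte-like and endothelial-like cells (1.06 in both). With 10 CPM added it was past 2-fold in neither class. In neutrophil-like cells Ptpn2 (-1.62), Ptpn6 (-1.12, from 3 untreated UMIs) and Pias1 (-1.91) were at least 2-fold lower. With 10 CPM added Ptpn6 was not past 2-fold there. Socs1, the feedback inhibitor of JAKs, was past 2-fold in Folr2-high macrophages (2.79, from 4 untreated UMIs) and was at 28.4 CPM and 53.6 CPM in macrophage-like cells (0.92) and 46.9 CPM and 76.9 CPM in Gng11-high tumor cells (0.71). In NK/T-like cells it was at 83.05 CPM and 64.7 CPM (-0.36).

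The response list of 39 genes, most of which also respond to type I interferon, divided into a higher and a lower part. In macrophage-like cells 8 of 38 tested genes were at least 2-fold higher and 6 at least 2-fold lower (6.29% and 3.61% of all genes). In monocyte-like cells they were 15 and 8 of 38 (10.5% and 13.3% of all), and in fibroblast-like cells 19 and 4 of 36 (7.47% and 7.4%). In dendritic-like cells they were 12 and 5 of 36 (11.2% and 28.4%), in NK/T-like cells 4 and 5 of 37 (5.28% and 7.19%) and in Gng11-high tumor cells 4 and 5 of 39 (2.38% and 1.52%). With 10 CPM added, the higher genes were 9 in monocyte-like and 5 in macrophage-like cells. The median log2 ratio of the list, with 1 CPM added, was 0.56, 0.42, 1.25, 0.66, 0.39 and 0.18 in the 6 classes, in the order given above. In Folr2-high macrophages 23 of 35 genes were at least 2-fold higher and 4 lower (11.1% and 7.12% of all; median 1.31), in endothelial-like cells 8 and 4 of 35 (7.28% and 8.13%; median 0.31) and in neutrophil-like cells 9 and 9 of 36 (35.6% and 32.5%, so that both shares were below those of all genes; median -0.33). The GTPase gene Gbp5 was among the 3 highest in all of the first 6 classes and stood at 33.2 CPM and 547 CPM in macrophage-like cells (4.04). Nos2, the inducible nitric oxide synthase gene, was at 12.04 CPM and 123 CPM there (3.36), at 16.2 CPM and 208 CPM in Gng11-high tumor cells (3.68) and at 3.27 CPM and 203 CPM in fibroblast-like cells (5.95). The chemokine gene Ccl5 was at 1216 CPM and 8924 CPM in macrophage-like cells (2.88). The GTPase gene Gbp2b was lowest of the list there, at 18.8 CPM and 1.11 CPM (-4.08).

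Ciita, Cd74 and 3 genes of MHC class II, which presents peptides to CD4 T cells, are 5 members of the list. At least 2-fold lower were 5 of 5 in macrophage-like, monocyte-like and NK/T-like cells, 4 of 4 tested in fibroblast-like, 4 of 5 in Gng11-high tumor and 3 of 5 in dendritic-like cells. Of the rest of the list, 1 of 33 was lower in macrophage-like, 3 of 33 in monocyte-like, 0 of 32 in NK/T-like and fibroblast-like, 1 of 34 in Gng11-high tumor and 2 of 31 in dendritic-like cells, and in the last the share of the whole list was below that of all genes. The MHC gene H2-Eb1 was at 5369 CPM untreated and 589 CPM with MSA-2 in macrophage-like cells (log2 -3.19) and at 5319 CPM and 160 CPM in monocyte-like cells (-5.06). In dendritic-like cells it was at 7897 CPM and 3893 CPM (-1.02). Ciita, the class II transactivator that IFN-γ induces, was at 24.7 CPM and 2.22 CPM in macrophage-like cells (-3.47), at 28.4 CPM and 2.10 CPM in monocyte-like cells (-3.76) and at 81.1 CPM and 59.3 CPM in dendritic-like cells (-0.45). In classes without much class II expression the same genes were lower too. H2-Eb1 was at 111 CPM and 4.98 CPM in Gng11-high tumor cells, 179 CPM and 8.94 CPM in fibroblast-like cells and 175 CPM and 8.55 CPM in NK/T-like cells, each below the macrophage-like level of its library, and the part of free RNA in these values was not tested.

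**Figure D5:**
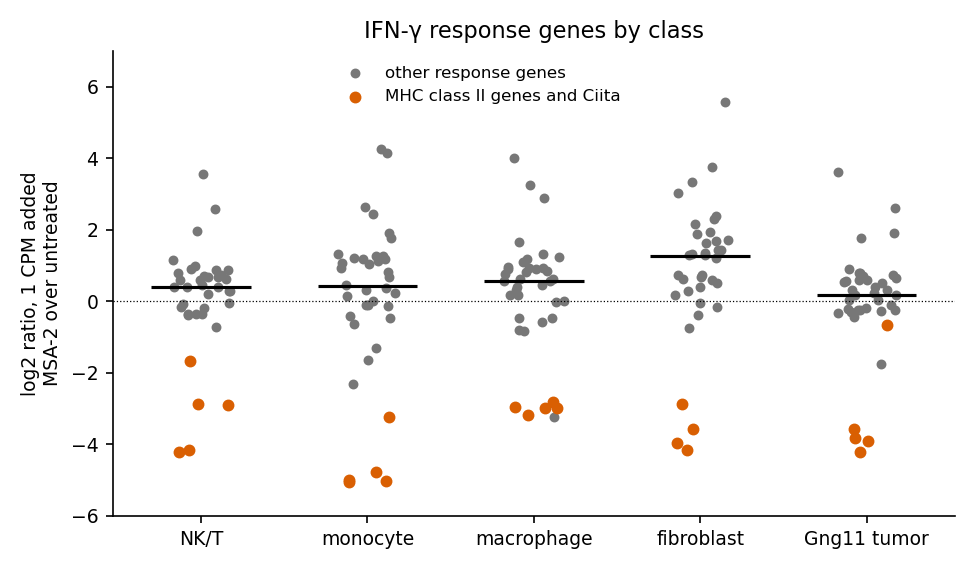
Log2 ratio of MSA-2 over untreated, with 1 CPM added to both, for each tested gene of the IFN-γ response list. The classes drawn are NK/T-like, monocyte-like, macrophage-like, fibroblast-like and Gng11-high tumor cells. Orange points are Ciita, Cd74 and MHC class II genes, and lines are medians. Medians of these classes lie between 0.18 in Gng11-high tumor cells and 1.25 in fibroblast-like cells. Most orange points lie below 0, with H2-Eb1 at -3.19 in macrophage-like cells.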

How the data were processed

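Single-cell libraries of 1 untreated and 1 MSA-2 pool were analysed. The deposited matrices of the authors, from 10x 3′ v3.1 libraries, hold counts of UMIs that were not normalized. The submitters' processing notes name Cell Ranger 7.0.0, Seurat 4.3.0 and mm10, and the file headers Cell Ranger 7.0.1. A cell needed 500 genes, and no more than 20% of its UMIs could be mitochondrial, while doublets called by Scrublet (scanpy 1.11.5, expected rate 0.8% per 1000 barcodes) were removed. Libraries were joined by reciprocal PCA in Seurat 5.3.0 (R 4.3.3; 2000 variable genes, 30 dimensions, resolution 1). The 3 members and interferon-stimulated genes, 210 genes in all, were left out of clustering. Clusters were named from marker lists by a scoring rule set after the clusters had been seen, and 697 untreated and 769 MSA-2 cells stayed unnamed.

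UMIs were summed per class or gate and divided by all UMIs of those cells to give CPM, with exact conditional binomial, Poisson or Clopper-Pearson intervals (scipy 1.17.1, numpy 2.4.6, pandas 2.3.3, Python 3.11.15; figures by matplotlib 3.10.9). The upper limit for a count of 0 was 3 counts. UMIs of the same cells and of 1 pooled library per group are not independent, so intervals and floors hold counting error only. With 1 library per group no p-value was computed. Genes of the lists were tested for 2-fold differences with 1 CPM added and at least 10 UMIs in both libraries together. Shares of cells were taken after thinning to 1500 UMIs. The genes named were the members, the list genes (relay, brakes, and the 3 highest and 3 lowest of the other lists; others were added after their values were seen) and the 5 genes most like each member among those with at least 200 UMIs. Some genes and motifs that this rule or the lists select are not reported here. The members and lists were chosen with earlier results of these data known. Ratio code was tested on simulated counts. Alternatives covered the cell filter, doublets, integration, resolution, weighting, TMM factors (edgeR 4.0.16), gates, thinning and low-count settings.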

Additional observations from a re-analysis of the deposited data

Results flagged for a closer look

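The log2 ratio of Ifng differed between kinds of cells of the same libraries. It was 1.76 in NK/T-like cells, 1.95 in gated CD8 T cells and 1.80 in gated NK cells, and -1.26 in macrophage-like and -3.48 in endothelial-like cells, with intervals on opposite sides of 0. The endothelial value rests on 7 UMIs and 1 UMI, with a range of -5.09 to -2.83 in the alternatives, and the macrophage value on 109 and 13 UMIs, and with doublets kept the macrophage value was 1.06. With 1 library per condition the difference between these kinds of cells was not tested.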

How the results depend on the processing

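The 12 main values were recomputed under the alternatives that apply to each, which gave 95 recomputed values in all. Of these, 75 stayed within the counting interval of the value reported, and 20 moved. None with an interval that excludes 0 turned its direction, and Ifngr2 in NK/T-like cells, whose interval includes 0, ranged from -1.14 with doublets kept to 0.25 with equal weight for each cell. The log2 ratio of Ifng ranged from 1.75 to 1.82 in NK/T-like cells, from 1.93 to 2.19 in CD8 T cells and from 1.69 to 1.88 in NK cells. Gating over all cells without clusters gave 2.19 for CD8 T cells, -0.71 for Ifngr1 in NK/T-like cells, and NK/T-like shares of Ifng UMIs of 76.5% untreated and 72.1% with MSA-2. Equal weight for each cell gave shares of 95.5% and 92.1% and, over all cells, -0.55 for Ifng, -1.44 for Ifngr1 and -1.01 for Ifngr2. With doublets kept the shares were 82.6% and 80.0%. In macrophage-like cells Ifngr1 was at -0.37 under the stricter cell filter, -0.30 with doublets kept, -0.11 without integration, -0.13 at resolution 0.5 and -0.30 with clusters weighted equally, and Ifngr2 was at -0.83 with doublets kept, -0.83 without integration and -0.92 at resolution 0.5. In Gng11-high tumor cells TMM factors gave -0.42 for Ifngr1 and -0.51 for Ifngr2, and equally weighted clusters gave -0.42 for Ifngr1. Among 30 further ratios, 3 recomputed values turned the direction of a ratio whose interval excludes 0; ratios whose interval includes 0 changed sign more often. With doublets kept Ifng was at 1.06 in macrophage-like cells and 0.53 in the summed monocyte and macrophage classes, and without integration Ifngr1 was at 0.025 in monocyte-like cells. The cause was not tested. Of 84 shares of cells recomputed without thinning or at 3000 UMIs 69 moved, and of 100 list counts 15 moved, 11 of these with 10 CPM added. The equal weighting of clusters and the summed classes were chosen after the data were seen. Ifngr2 in NK/T-like cells, at 71 and 16 UMIs, and the γδ, CD4 and regulatory T gates are limited by depth and cell number. No paired analysis was possible because each group has 1 library.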
